A study of Mus musculus with 12 samples.

Results

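The genes described here are 10 markers of epithelial and mesenchymal cell state: the cadherins Cdh1 and Cdh2, the junction genes Epcam, Ocln, Cldn6 and Cldn7, the splicing factor gene Esrp1, the intermediate filament gene Vim, and the repressor genes Zeb1 and Zeb2. They were chosen by name, with earlier results of these data known, and make up 10 of 24015 gene rows. Shares of members called are therefore not those of a blind choice. All 10 passed the filter on low counts that left 14356 genes for testing. RNA was sequenced from 12 libraries of mouse embryoid bodies, which are aggregates of embryonic stem cells left to differentiate in suspension. The libraries form 4 groups of 3: control bodies on day 2, Trim33-deficient bodies on day 2, control bodies on day 2.5 and Trim33-deficient bodies on day 2.5. Trim33 encodes a chromatin-associated ubiquitin ligase that takes part in signalling by Nodal and other TGF-beta ligands, and the study set out to find the genes whose expression differs when it is lost.

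Every group came from stem cell lines of an outbred strain with both Trim33 alleles floxed and a tamoxifen-activated Cre (UbcCreERT2) under the ubiquitin promoter, kept in LIF and 2i with no feeder cells until differentiation. Trim33 loss was started by 4OH-Tamoxifen on day 1, so the day 2 and day 2.5 bodies were collected soon after it. The control libraries are called wildtype in the labels' genotype field, although the protocol gives the floxed alleles and the Cre for the lines as a whole. Whether control cultures also received tamoxifen is not given in the sources used here. The labels mention 3 independent pairs without saying that a replicate number marks a pair, so each p-value reflects the spread among libraries and no more.

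Epithelial cells hold on to each other through adherens junctions built on E-cadherin, the product of Cdh1, and seal the space between them with tight junctions of claudins and occludin. In an epithelial to mesenchymal transition, as in the primitive streak of the gastrulating embryo, repressors of the ZEB and SNAI families bind E-box sequences in epithelial genes, E-cadherin gives way to N-cadherin, the product of Cdh2, and the filament protein vimentin accumulates. Pluripotent cells of the mouse epiblast are themselves epithelial and express Cdh1, Epcam and Esrp1.

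Each library held between 10066338 and 16529627 reads assigned to genes, and levels are given as CPM, counts scaled by sequencing depth with TMM factors. A count of 3, taken as the floor, corresponded to 0.179 to 0.318 CPM, which covers counting error only, and every member lay above it in all 12 libraries. Trim33 was at 239 to 277 CPM in the 6 control libraries and at 54.4 to 69.6 CPM in the 6 Trim33-deficient libraries, and it fell by 2.03 on the log2 scale on day 2 and by 2.10 on day 2.5. The summed level of 9 embryonic stem cell and epiblast markers was between 5163 and 7416 CPM in all libraries. Reads of Rn45s, the precursor of ribosomal RNA, were 11.9% of counts for day 2.5 control replicate 2, 7.87% for day 2 Trim33-deficient replicate 1 and 0.609 to 1.67% elsewhere, and an earlier analysis of these data set day 2 control replicate 2 apart for its hypoxia genes. Results that lose their call without these libraries are given with the value without them.

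**Figure D1:**
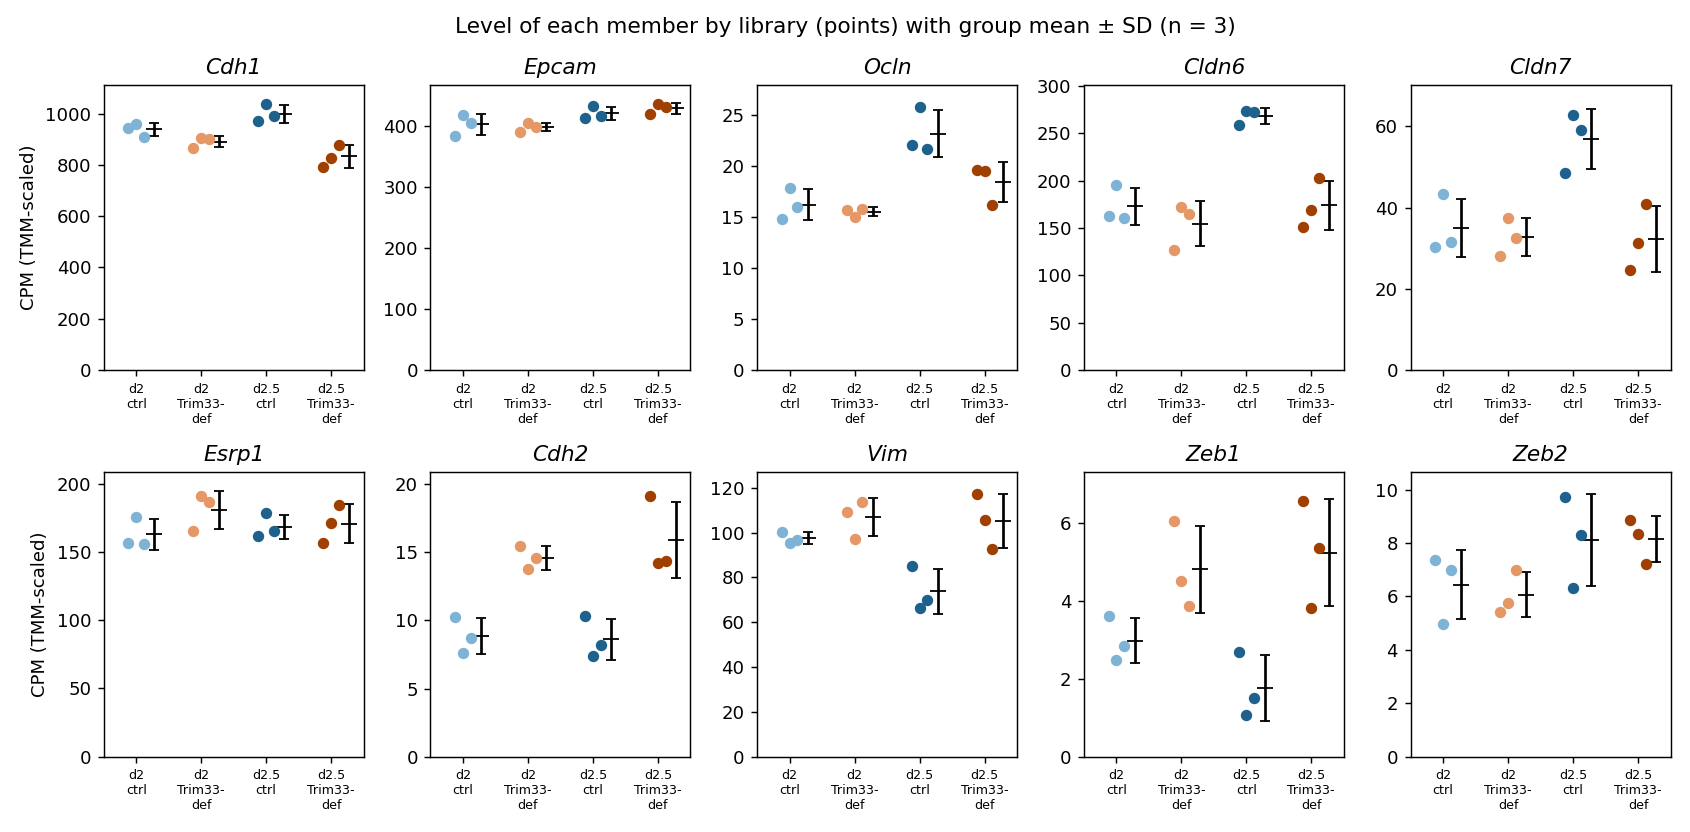
Level of each of the 10 genes in every library (points, CPM from TMM-scaled library sizes, vertical axes from 0) with the group mean and SD (n = 3) beside them, for control (ctrl) and Trim33-deficient (def) bodies on day 2 (d2) and day 2.5 (d2.5). Cldn6, Cldn7 and Ocln were highest in the day 2.5 control libraries, Vim was lowest there, Cdh2 and Zeb1 were higher in both Trim33-deficient groups than in both control groups, and Epcam, Esrp1 and Zeb2 overlapped between neighbouring groups.

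Levels of different genes were compared per length. Per kilobase of annotated exon, the day 2.5 control level was 219 CPM for Cdh1, 192 CPM for Epcam, 156 CPM for Cldn6, 29.2 CPM for Cldn7, 26.7 CPM for Esrp1 and 5.50 CPM for Ocln. On the same scale it was 15.5 CPM for Vim, 1.07 CPM for Cdh2, 0.407 CPM for Zeb2 and 0.171 CPM for Zeb1. The lowest epithelial member, Ocln, was thus below Vim on this scale, and the other epithelial members were above all 4 mesenchymal members. Exon lengths came from the GENCODE M21 annotation, which may differ from the one the authors counted on. In that annotation Zeb2 shares 653 exon bases with Zeb2os, Zeb1 shares 198 with Gm10125 and Esrp1 shares 127 with Gm26663, each on the opposite strand, and the strand setting of the counting is not given in the sources used here.

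On day 2.5 the members split by role when Trim33-deficient bodies were compared with control bodies. Cdh1, Ocln, Cldn6 and Cldn7 fell, Cdh2, Vim and Zeb1 rose, and Epcam, Esrp1 and Zeb2 did not pass the test. The largest rise among the members was 2.90-fold, of Zeb1, and the largest fall 1.75-fold, of Cldn7. Thus 7 of 10 members passed at an adjusted p under 0.05 (quasi-likelihood test of edgeR, Benjamini-Hochberg adjusted over all 14356 genes), 3 upward and 4 downward, where 42.8% of all tested genes passed, 22.0% upward and 20.7% downward. The groups did not overlap for those 7 members, against 53.0% of all tested genes. The median log2 fold change was 0.00398 over the 10 members and -0.00959 over all tested genes. Because this is bulk RNA, fewer cells of a type and less of a transcript per cell cannot be told apart.

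**Figure D2:**
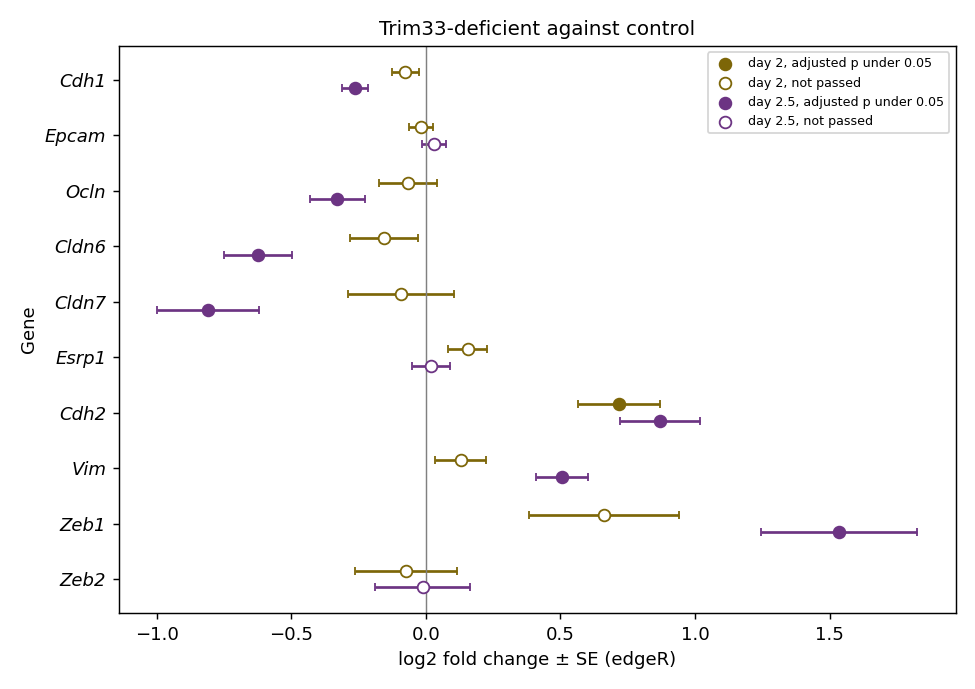
Log2 fold change of Trim33-deficient against control bodies with its standard error for each of the 10 genes, on day 2 and on day 2.5 (edgeR, 3 libraries per group, filled where the adjusted p is under 0.05). On day 2 the filled point is Cdh2 at 0.72, and on day 2.5 the filled points run from -0.81 for Cldn7 to 1.54 for Zeb1.

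Cdh1, which encodes E-cadherin, stood at 971, 1037 and 991 CPM in the day 2.5 control libraries and at 794, 827 and 879.7 CPM in the Trim33-deficient libraries. The groups did not overlap, and the fall was small, 1.20-fold (log2 fold change -0.26 ± 0.049 SE, adjusted p = 0.000491). Cdh2, which encodes N-cadherin, was at 10.3, 7.37 and 8.19 CPM in control and at 19.1, 14.2 and 14.3 CPM in Trim33-deficient bodies. All 3 deficient libraries lay above all 3 controls, and the rise was 1.83-fold (0.87 ± 0.15, adjusted p = 0.000252).

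The Cdh1 to Cdh2 count ratio, taken within each library and so free of library scaling, followed the same order. It was 94.3, 141 and 121 in the day 2.5 control libraries and 41.5, 58.3 and 61.3 in the Trim33-deficient libraries. On day 2 it was 92.2, 127 and 104 in control and 56.0, 65.8 and 61.9 in Trim33-deficient bodies. The lowest control ratio was above the highest deficient ratio at both times.

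**Figure D3:**
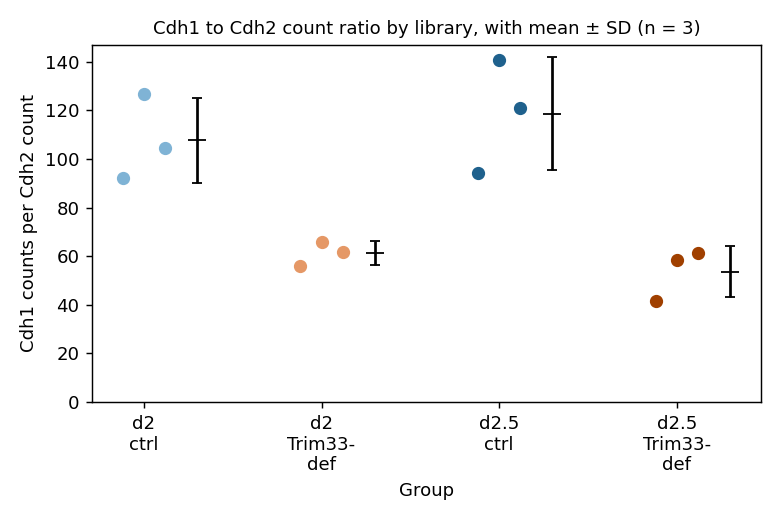
Counts of Cdh1 per count of Cdh2 in each library, on a linear axis from 0, with the mean and SD of each group (n = 3). The control libraries lie between 92.2 and 141 and the Trim33-deficient libraries between 41.5 and 65.8.

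Among the tight junction genes, Cldn6 encodes a claudin of embryonic epithelia, Cldn7 a claudin of many epithelia and Ocln the membrane protein occludin. Cldn6 was at 259, 273 and 273 CPM in day 2.5 control libraries and at 151, 169 and 202 CPM in Trim33-deficient libraries. It fell 1.54-fold without overlap (log2 fold change -0.62 ± 0.13 SE, edgeR adjusted p = 0.00222). Cldn7 was at 48.6, 62.8 and 59.2 CPM in control and at 24.7, 31.2 and 40.8 CPM in Trim33-deficient bodies. It fell 1.75-fold, again without overlap (-0.81 ± 0.19, adjusted p = 0.00532). The Cldn6 to Cldn7 count ratio stayed between 4.35 and 6.13 in all 12 libraries, while the Cldn7 level spanned 24.7 to 62.8 CPM.

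Ocln was at 22.1, 25.9 and 21.7 CPM in day 2.5 control libraries and at 19.6, 19.5 and 16.2 CPM in Trim33-deficient libraries. The groups did not overlap, and the fall was 1.26-fold (log2 fold change -0.33 ± 0.10 SE, edgeR adjusted p = 0.0157). That call was lost without day 2.5 control replicate 2 (adjusted p = 0.0802), without day 2.5 Trim33-deficient replicate 3 (0.0844) and without both libraries rich in ribosomal RNA (0.0816).

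Epcam, which encodes an epithelial adhesion molecule, did not follow Cdh1 and the claudins. Its day 2.5 levels were 413, 433 and 416 CPM in control and 419.6, 437 and 432 CPM in Trim33-deficient bodies, which overlap. The log2 difference was 0.029 with a 95% interval of -0.064 to 0.12 (adjusted p = 0.623), so a change as large as that of Cldn6 lies outside the interval. Esrp1, which encodes a splicing regulator of epithelial isoforms, was at 162, 178 and 165 CPM in control and at 156, 171 and 184 CPM in Trim33-deficient bodies. The groups overlapped, and the log2 difference was 0.020 with a 95% interval of -0.13 to 0.17 (adjusted p = 0.84).

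The promoter sequences of these junction genes are shown because ZEB and SNAI repressors bind the E-box CACCTG, which reads CAGGTG on the other strand. Both spellings were searched as 1 motif within 250 bases upstream of each RefSeq transcription start (GRCm38.p6), and 5657 of 32851 promoter windows, or 17.2%, held at least 1 match. A window was found for 6 members, Epcam, Ocln, Cldn6, Cldn7, Vim and Zeb2. For each of them only the most upstream start was used, unlike the 17.2%, which covers all starts. Of these 6 windows 2 held a match. Matches are in capitals, and sequences read 5′ to 3′ on the gene's strand. Epcam lies on the plus strand, with the printed bases at chr17:87635729-87635978. Cldn6 is shown as a stretch of 30 bases around its match at chr17:23679260-23679289 on the plus strand. Its full window is not printed because part of it lies in an annotated Cldn6 exon. Whether the match lies in that exon is not given here. The Cldn7 bases are at chr11:69964529-69964778 on the plus strand, and the Ocln bases at chr13:100552719-100552968 on the minus strand.
Epcam: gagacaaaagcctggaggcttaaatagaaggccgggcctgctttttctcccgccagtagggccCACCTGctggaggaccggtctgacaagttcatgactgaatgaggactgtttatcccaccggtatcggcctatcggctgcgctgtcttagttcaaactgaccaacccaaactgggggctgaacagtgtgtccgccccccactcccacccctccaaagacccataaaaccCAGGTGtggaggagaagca
Cldn6: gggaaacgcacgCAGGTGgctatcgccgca
Cldn7: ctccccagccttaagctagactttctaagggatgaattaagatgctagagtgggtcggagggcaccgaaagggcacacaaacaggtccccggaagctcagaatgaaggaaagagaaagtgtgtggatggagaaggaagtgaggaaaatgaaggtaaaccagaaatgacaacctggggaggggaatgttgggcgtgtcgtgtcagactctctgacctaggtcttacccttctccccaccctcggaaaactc
Ocln: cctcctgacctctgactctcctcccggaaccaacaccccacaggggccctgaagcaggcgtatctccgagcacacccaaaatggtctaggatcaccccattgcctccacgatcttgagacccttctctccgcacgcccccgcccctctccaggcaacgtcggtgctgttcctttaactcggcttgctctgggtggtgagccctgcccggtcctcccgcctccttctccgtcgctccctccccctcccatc
Epcam had matches starting 187 and 19 bases upstream of its start, and Cldn6 had 1 match starting 93 bases upstream. Cldn7 and Ocln had no match in these letters, which says nothing about the binding of any factor.

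Vim, which encodes vimentin, was at 85.1, 66.2 and 69.8 CPM in day 2.5 control libraries and at 117, 105 and 92.7 CPM in Trim33-deficient libraries. Every deficient library exceeded every control, and the rise was 1.42-fold (log2 fold change 0.51 ± 0.097 SE, edgeR adjusted p = 0.00086). Zeb1, a repressor of Cdh1 and other epithelial genes, was at 2.69, 1.07 and 1.51 CPM in control and at 6.55, 3.80 and 5.36 CPM in Trim33-deficient bodies. The groups did not overlap, and the rise was 2.90-fold (1.54 ± 0.29, adjusted p = 0.000581). These Zeb1 levels rest on 41, 12 and 24 counts in control and on 90, 52 and 90 counts in Trim33-deficient libraries.

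Zeb2, the paralog of Zeb1, was at 9.71, 6.31 and 8.31 CPM in day 2.5 control and at 8.87, 8.34 and 7.20 CPM in Trim33-deficient bodies. The groups overlapped, and the log2 difference was -0.012 with a 95% interval of -0.38 to 0.36 (edgeR adjusted p = 0.963). A rise as large as that of Zeb1 lies outside that interval. The Zeb1 to Zeb2 count ratio was 0.169 to 0.277 in day 2.5 control libraries and 0.456 to 0.744 in Trim33-deficient libraries. On day 2 that ratio was 0.404 to 0.5 in control, which overlaps the day 2.5 Trim33-deficient range, and 0.553 to 1.12 in Trim33-deficient libraries.

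On day 2 Cdh2 was the member that passed: it was at 10.3, 7.58 and 8.73 CPM in control and at 15.5, 13.8 and 14.6 CPM in Trim33-deficient bodies, a 1.64-fold rise without overlap (log2 fold change 0.72 ± 0.15 SE, edgeR adjusted p = 0.0097). That is 1 of 10 members upward and 0 downward, where 9.84% of all tested genes passed, 5.94% upward and 3.90% downward. For the downward direction, the count at an unadjusted p under 0.05 was also 0, and DESeq2 gave 0. Upward, the unadjusted count was 3 (Cdh2, Zeb1 and Esrp1). Here and below, shares of called genes among all tested are at the adjusted p, so unadjusted counts cannot be set against them.

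Zeb1 on day 2 was at 3.60, 2.47 and 2.83 CPM in control and at 6.05, 4.50 and 3.87 CPM in Trim33-deficient bodies. The groups did not overlap, but the difference missed the threshold (log2 0.66 ± 0.28 SE, 95% interval 0.069 to 1.26, adjusted p = 0.151). Cdh1 was at 945, 959.7 and 911 CPM in control and at 866, 904 and 901 CPM in Trim33-deficient bodies, again without overlap and without a call (-0.076 ± 0.049, adjusted p = 0.364). With Cdh2 these make 3 members whose groups did not overlap, against 29.4% of all tested genes. The other 7 members had log2 differences between -0.16 for Cldn6 and 0.15 for Esrp1, with adjusted p from 0.189 to 0.854.

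Between day 2 and day 2.5 the tight junction genes of control bodies rose together. Cldn6, at 163, 196 and 161 CPM on day 2, rose 1.55-fold to its day 2.5 levels (log2 fold change 0.63 ± 0.13 SE, edgeR adjusted p = 0.00691). Ocln, at 14.8, 17.9 and 16.1 CPM on day 2, rose 1.42-fold (0.51 ± 0.10, adjusted p = 0.00388), and Cldn7, at 30.3, 43.2 and 31.6 CPM on day 2, rose 1.62-fold (0.69 ± 0.19, adjusted p = 0.0304). Vim, at 100.4, 95.4 and 96.9 CPM on day 2, fell 1.32-fold (-0.40 ± 0.098, adjusted p = 0.0134). None of these 4 genes overlapped between the 2 times. With Cdh1, which did not pass the test (0.091 ± 0.049, adjusted p = 0.226), 5 members did not overlap, against 31.2% of all tested genes.

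Thus 3 of 10 members rose and 1 fell with time in control bodies, where 16.1% of tested genes passed, 8.20% upward and 7.91% downward. The Cldn7 rise lost its call with no filter on low counts (adjusted p = 0.0663) and without day 2 control replicate 1 (0.109) or 3 (0.108) or day 2.5 control replicate 2 (0.104) or 3 (0.0832), without both libraries rich in ribosomal RNA (0.104), and with all 3 libraries set apart left out (0.0657). The Vim fall lost its call without day 2.5 control replicate 3 (adjusted p = 0.0612), without both libraries rich in ribosomal RNA (0.0608) and without all 3 (0.126). Zeb1 had the largest log2 difference in size, -0.72 ± 0.32, and missed the threshold (adjusted p = 0.141), although without day 2.5 control replicate 1 it passed (adjusted p = 0.0282). Cdh2 had a log2 difference of -0.028 and a 95% interval of -0.37 to 0.31.

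**Figure D4:**
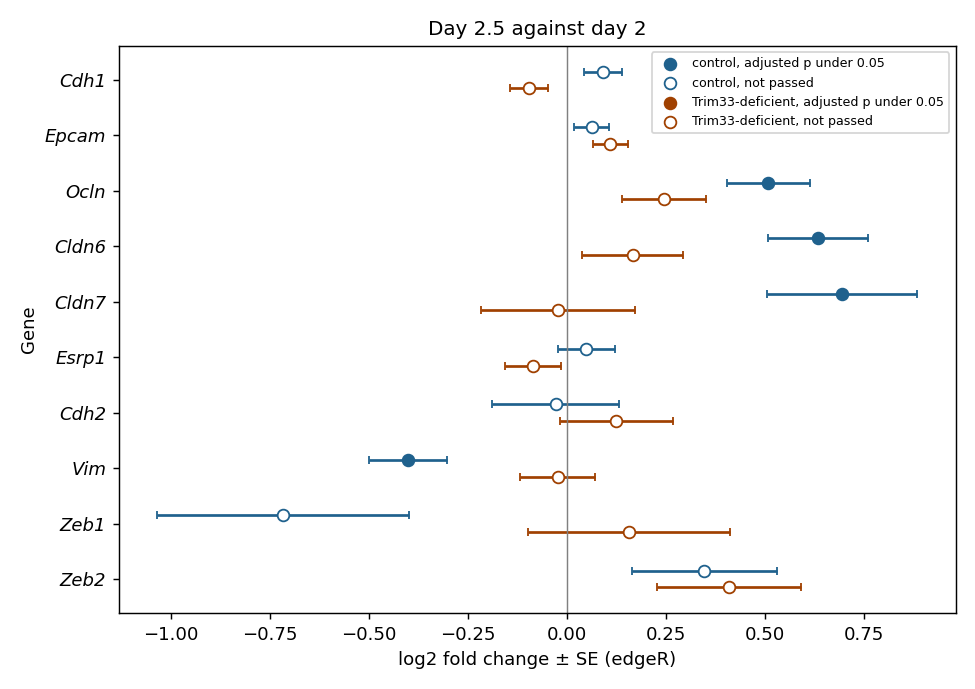
Log2 fold change from day 2 to day 2.5 with its standard error for each of the 10 genes, in control bodies and in Trim33-deficient bodies (edgeR, 3 libraries per group, filled where the adjusted p is under 0.05). In control bodies the filled points are Ocln at 0.51, Cldn6 at 0.63, Cldn7 at 0.69 and Vim at -0.40, and in Trim33-deficient bodies no point is filled.

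In Trim33-deficient bodies no member passed between day 2 and day 2.5, where 16.0% of all tested genes did, 9.09% upward and 6.93% downward. The 2 times did not overlap for 3 members, Epcam, Ocln and Zeb2, against 38.7% of all tested genes. Their log2 differences were 0.11 ± 0.044 SE for Epcam (edgeR adjusted p = 0.106), 0.24 ± 0.11 for Ocln (0.128) and 0.41 ± 0.18 for Zeb2 (0.141). At an unadjusted p under 0.05 there were 3 upward (Epcam, Ocln and Zeb2) and 0 downward, and DESeq2 called 0 in either direction. The 16.0% of all tested genes is at the adjusted p and cannot be set beside that unadjusted count. Epcam was called in a fit of the libraries compared alone (log2 0.11, adjusted p = 0.0399). Cldn6 was at 127, 172 and 165 CPM on day 2 and at 151, 169 and 202 CPM on day 2.5, and the 2 times overlapped (log2 0.17 ± 0.13 SE, edgeR adjusted p = 0.416). Cldn7 was at 28.1, 37.5 and 32.4 CPM on day 2, overlapping its day 2.5 levels (-0.024 ± 0.19, adjusted p = 0.954). Vim was at 109, 97.3 and 114 CPM on day 2, also overlapping (-0.024 ± 0.095, adjusted p = 0.898).

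Whether the genotype difference itself changed between the 2 days was tested as an interaction, and no member passed, where 4.01% of all tested genes did, 2.77% upward and 1.24% downward. The log2 interaction was -0.72 ± 0.27 SE for Cldn7 (edgeR adjusted p = 0.162), -0.47 ± 0.18 for Cldn6 (0.165), -0.19 ± 0.069 for Cdh1 (0.136), 0.38 ± 0.14 for Vim (0.134) and 0.87 ± 0.41 for Zeb1 (0.234). These are the 5 members with an unadjusted p under 0.05, 2 upward and 3 downward. That count cannot be set against the 4.01% of all tested genes, which is at the adjusted p. DESeq2 called 1 member, Cldn7 (adjusted p = 0.0482). Without day 2 Trim33-deficient replicate 1 Cldn6 passed (adjusted p = 0.0367), without day 2.5 Trim33-deficient replicate 3 Cldn7 did (0.0465), and without day 2.5 control replicate 1 Vim did (0.0239). Without all 3 libraries that stood apart Cdh1 (0.0451) and Cldn6 (0.0295) passed. Day 2.5 control libraries enter both the day 2.5 genotype comparison and the control time comparison, so the fall of the claudins in one and their rise in the other are not separate observations.

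Ordered by group mean, the members fell into a few patterns. For Cldn6, Cldn7 and Ocln the day 2.5 control group was highest and did not overlap the next group, while the other 3 groups overlapped their neighbours in the order. For Vim the day 2.5 control group was lowest and did not overlap the next. For Cdh2 and Zeb1 both control groups lay below both deficient groups, with no overlap across that step and overlap within each genotype. For Cdh1 the order was day 2.5 Trim33-deficient at 833 ± 43.4 CPM, day 2 Trim33-deficient at 891 ± 20.9, day 2 control at 939 ± 24.9 and day 2.5 control at 999.7 ± 33.9 (SD, n = 3 each), and the lowest pair overlapped. For Epcam, Esrp1 and Zeb2 every neighbouring pair of groups overlapped.

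The largest coefficient of variation in any group was 4.31% for Epcam and 5.20% for Cdh1, against 25.1% for Cldn7, 21.1% for Zeb2 and 47.8% for Zeb1. Across the 12 libraries, which include the group differences and share their scaling, Pearson's r of log2 CPM was 0.95 for Cldn6 and Cldn7, -0.94 for Cldn7 and Vim, 0.90 for Cdh2 and Zeb1, -0.87 for Cdh1 and Zeb1 and 0.0032 for Zeb1 and Zeb2.

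Among all tested genes, those whose log2 CPM most resembled each member over the 12 libraries were Arid2 (Pearson's r = 0.99) and Dynll2 (0.98) for Cdh1, Zfp36l1 (0.98) and Tdh (0.97) for Cdh2, Ppp1r26 and Sept8 (0.97 each) for Cldn6, and Sept9 and Ppp1r26 (0.97 each) for Cldn7. For Vim they were Herpud1 (0.98) and H2afj (0.96), for Zeb1 Daxx (0.97) and Atf5 (0.96), for Ocln Decr1 and Zhx2 (0.96 each), and for Zeb2 Pdia3 and Wnt3 (0.96 each). Epcam was closest to Gla (0.95) and Irf2 (0.94), and Esrp1 had the weakest likeness, 0.85 to Gm10865 and 0.84 to Nuak2.

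Genes of the same kinds outside the members were listed and counted for the day 2.5 genotype comparison, in which 22.0% of all tested genes passed upward and 20.7% downward. Of 40 junction and polarity genes, 36 were tested: 7 rose, 9 fell and 20 did not pass, shares near those of all genes, with a median log2 fold change of -0.081. Perp, a desmosome-associated membrane protein, was at 27.0 ± 2.72 CPM in control and 76.5 ± 11.8 CPM in deficient bodies, a rise of 2.81-fold (SD, n = 3 each, log2 fold change 1.49 ± 0.13 SE, edgeR adjusted p = 2.16e-06), and Pkp3, a desmosomal plaque protein, rose 1.74-fold (0.80 ± 0.15, adjusted p = 0.00045). Marveld2 and Marveld3, tight junction proteins of the occludin family, fell like Ocln, by 0.61 ± 0.12 (adjusted p = 0.000829) and by 0.47 ± 0.12 (adjusted p = 0.00391) on the log2 scale. The number of junction and polarity genes that fell was 5 without day 2.5 Trim33-deficient replicate 1.

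Among the genes for cytoplasmic partners and regulators of cadherins, 2 of 10 rose and 5 fell, with a median of -0.13, where 22.0% of all tested genes rose and 20.7% fell. The catenin genes Jup (plakoglobin) and Ctnna1 (alpha-catenin) had log2 fold changes of 0.48 ± 0.065 and 0.42 ± 0.056 (SE, edgeR adjusted p = 3.92e-05 and 2.82e-05) and thus rose. Arvcf, a catenin of the p120 family, fell by 0.42 ± 0.10 (adjusted p = 0.00298), and Vcl, which encodes vinculin, fell by 0.36 ± 0.069 (adjusted p = 0.000608).

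On the list of epithelial transcription and splicing factors 10 of 15 tested genes rose and 1 fell, with a median log2 fold change of 0.53, beside 22.0% and 20.7% of all tested genes. This list also holds 3 genes of other kinds: Prss8, a membrane serine protease, which is among the 10 that rose, Rab25, a small GTPase, which did not pass, and Prom1. The largest were Tfap2c, from 4.87 ± 0.972 to 20.8 ± 0.303 CPM (SD, n = 3 each, 2.11 ± 0.18 SE, edgeR adjusted p = 5.38e-07), and Klf4, from 2.10 ± 0.433 to 8.60 ± 1.57 CPM (2.00 ± 0.25, adjusted p = 1.53e-05). Both are also expressed outside epithelia, Tfap2c in trophoblast and Klf4 in naive stem cells. Prom1, a membrane glycoprotein of apical protrusions, was the gene that fell (-0.58 ± 0.12, adjusted p = 0.00123), and 2 fell without day 2 control replicate 2. Of the 4 simple keratin genes Krt8 rose 2.15-fold (1.11 ± 0.12, adjusted p = 3.94e-06) and the others did not pass, although 2 rose without day 2.5 control replicate 2.

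Of 14 mesenchymal transcription factor genes 10 were tested: 4 rose and 3 fell, with a median of 0.16, where 22.0% of all tested genes rose and 20.7% fell, and 2 rose without day 2.5 Trim33-deficient replicate 2. Snai1, a zinc finger repressor of Cdh1, was at 4.39 ± 1.19 CPM in control and 10.5 ± 0.457 CPM in deficient bodies, a rise of 2.35-fold (SD, n = 3 each, log2 fold change 1.23 ± 0.19 SE, edgeR adjusted p = 8.64e-05), and the homeobox gene Msx2 rose 2.51-fold (1.33 ± 0.25, adjusted p = 0.000615). Gsc, a homeobox gene of the anterior streak, fell 3.11-fold on 2 to 23 counts per library (-1.63 ± 0.45, adjusted p = 0.0087), and Tcf4 fell by 0.38 ± 0.093 on the log2 scale (adjusted p = 0.00362).

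Of 22 mesenchymal adhesion, cytoskeleton and matrix genes 17 were tested: 6 rose and 3 fell, with a median of 0.30, beside the same shares of all genes. The matrix gene Fn1, which encodes fibronectin, was at 305 ± 39.3 CPM in control and 642 ± 30.2 CPM in deficient bodies, a rise of 2.11-fold (SD, n = 3 each, 1.07 ± 0.12 SE, edgeR adjusted p = 2.88e-05), and the integrin gene Itgb3 rose 2.71-fold (1.44 ± 0.23, adjusted p = 0.000124). The smooth muscle genes Acta2 and Tagln fell, by 1.80 ± 0.38 (adjusted p = 0.00122) and 1.29 ± 0.19 (adjusted p = 0.000161) on the log2 scale.

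**Figure D5:**
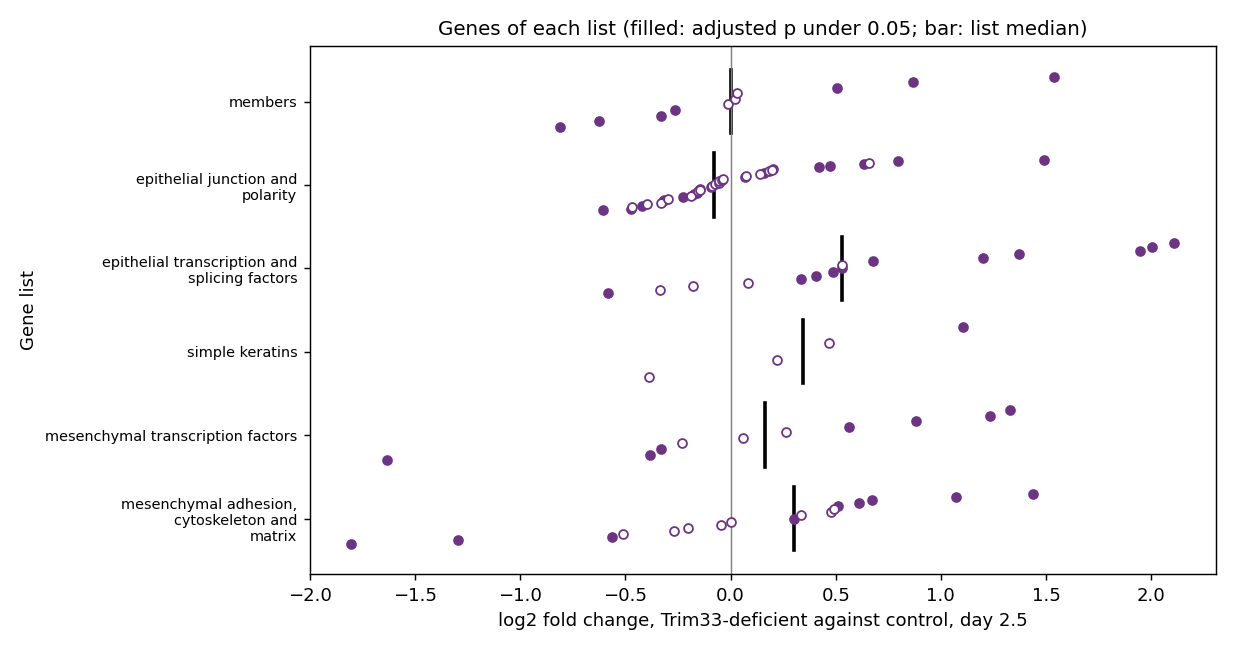
Log2 fold change on day 2.5 (Trim33-deficient against control, edgeR) of each tested gene in the members and 5 other lists, filled where the adjusted p is under 0.05, with a bar at each list's median. Medians are 0.00398 for the members, -0.081 for junction and polarity genes and 0.53 for epithelial transcription and splicing factors, and every list of more than 4 genes has filled points on both sides of 0.

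With time in control bodies, 9 of 36 junction and polarity genes rose and 0 fell, with a median log2 fold change of 0.12, where 8.20% of all tested genes rose and 7.91% fell; 1 had an unadjusted p under 0.05 downward, and DESeq2 called 0. The rises were largest for the desmosomal cadherin genes Dsg2 (0.86 ± 0.066 SE, edgeR adjusted p = 2.66e-06) and Dsc2 (0.63 ± 0.16, adjusted p = 0.0141). The number that rose was 5 without day 2 control replicate 3. The Dsc2 call was lost in a fit of the libraries compared alone (adjusted p = 0.053), and without day 2 control replicate 1 (0.0535) or 3 (0.0744) or day 2.5 control replicate 2 (0.0521). Fn1 fell by 0.60 ± 0.11 on the log2 scale (adjusted p = 0.00509), like Vim, and Tagln rose (1.35 ± 0.20, adjusted p = 0.000717), unlike Vim. These values again share the day 2.5 control libraries with the genotype comparison above.

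The other lists were counted for the same comparison, in which 8.20% of all tested genes rose and 7.91% fell. Tested were 15 genes of the epithelial factor list, 4 simple keratin genes and 10 mesenchymal transcription factor genes. Of the mesenchymal adhesion, cytoskeleton and matrix genes 17 were tested. On the list of epithelial factors Prom1 rose (log2 fold change 1.18 ± 0.12 SE, edgeR adjusted p = 5.51e-05) and Grhl2 fell (-0.35 ± 0.066, adjusted p = 0.00254), and the number that fell was 2 with day 2 control replicate 1 or 3, day 2 Trim33-deficient replicate 1 or all 3 libraries set apart left out. Krt8 was the simple keratin gene that rose (0.73 ± 0.13, adjusted p = 0.00194). Of the mesenchymal transcription factor genes Twist1 rose (0.47 ± 0.12, adjusted p = 0.0121), a call lost when day 2 control replicate 3 was left out (adjusted p = 0.0635); 2 rose when day 2 control replicate 2 was. Among mesenchymal adhesion, cytoskeleton and matrix genes 3 rose and 2 fell, among them the intermediate filament gene Nes (0.77 ± 0.12, adjusted p = 0.00122) and the matrix proteoglycan gene Dcn (-0.90 ± 0.20, adjusted p = 0.00625). For the cadherin partners edgeR called 0 of 10, with 4 upward and 0 downward at an unadjusted p under 0.05, and DESeq2 called 1 upward.

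Markers of other cell types were counted for the same day 2.5 genotype comparison, in which 22.0% of all tested genes rose and 20.7% fell. Summed over 9 trophoblast markers, the day 2.5 level was 37.0 to 46.5 CPM in control and 67.7 to 76.5 CPM in Trim33-deficient bodies, with Elf5 at 2 counts or fewer in every library; 5 of 8 tested rose and 1 fell. Summed over 13 primitive streak and nascent mesoderm markers it was 48.8 to 65.8 CPM in control and 31.5 to 36.9 CPM in Trim33-deficient bodies. Of 8 tested, 1 rose and 4 fell. Eomes, which is on both this list and the trophoblast list, fell (log2 fold change -0.99). Over 11 fibroblast markers the sum was 144 to 168 and 124 to 131 CPM, most of it Fbln1, with Fap at 0 in all libraries. Of 7 tested, 2 rose and 4 fell. The rise of Col5a1 lost its call without both libraries rich in ribosomal RNA (edgeR adjusted p = 0.0941). Over 13 endoderm markers the sum was 39.7 to 51.5 and 36.2 to 38.6 CPM, with Afp, Ttr and Apoa1 at 3 counts or fewer. The most abundant endoderm marker was Dab2, which fell from 27.4 to 18.1 CPM, while Sox17 (log2 fold change 1.84, edgeR adjusted p = 0.00337) and Hnf4a (1.62, adjusted p = 0.011) rose. Both rises rest on few counts, at most 21 for Sox17 and 17 for Hnf4a (0.131 to 1.24 CPM) in any library. The Hnf4a call was lost without day 2.5 control replicate 1 (adjusted p = 0.0538) or day 2.5 Trim33-deficient replicate 1 (0.0681). Of the 9 tested, 3 rose and 2 fell in all. The fall of Amn lost its call without both libraries rich in ribosomal RNA (edgeR adjusted p = 0.0781) and without all 3 libraries that stood apart (0.0726). Over 9 neuroectoderm markers the sum was 132 to 148 and 114 to 130 CPM, most of it Nes. Zic1, 1 of 4 tested, rose (log2 fold change 1.47, edgeR adjusted p = 0.0115). Zic1 had at most 20 counts in any library, and its call was lost without day 2.5 control replicate 3 (adjusted p = 0.0509). The stem cell and epiblast sum was 6275 to 7089 CPM in control and 5163 to 5718 CPM in Trim33-deficient bodies, and Dnmt3b went from 3211 to 1884 CPM. Of these 9 genes 3 rose, Zfp42 (log2 fold change 1.33) and Sox2 (0.34) among them, and 3 fell, Nanog (-1.26) and Dnmt3b (-0.77) among them. The part of these cell types in the differences at the 10 genes was not tested.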

How the data were processed

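RNA was sequenced from 12 libraries of embryoid bodies in 4 groups of 3, grouped by the sample titles. The authors deposited 1 table of whole-number counts per library, with a row for each gene symbol. The submitters' processing notes name STAR, HTSeq, DESeq and mm9. Not given in the sources used here are versions, annotation, strand handling and the fate of multiply mapped reads. Each table ends in 5 summary rows without a gene, which were dropped before scaling and testing. By these rows 55.9 to 60.5% of reads lay outside annotated features, 0.144 to 0.189% were ambiguous and 39.3 to 43.9% had a gene. In day 2.5 Trim33-deficient replicate 1, 27 gene names turned into dates by a spreadsheet were restored by row position.

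From these counts, edgeR 4.0.16 in R 4.3.3 fitted 4 group means to all 12 libraries by robust quasi-likelihood, leaving 8 residual degrees of freedom, after TMM scaling and the filterByExpr filter on low counts. In each of 5 comparisons, p-values of 14356 genes were Benjamini-Hochberg adjusted and called under 0.05. Intervals are 95% intervals of the fit. DESeq2 1.42.0, other scalings and filters, replicate blocks and fits with libraries left out were alternatives. The edgeR fit was tested on simulated counts.

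The 10 members, the 12 other lists and the tests were chosen with earlier results of these data known. All members were named. From each of 6 other state lists, the 2 largest rises and 2 largest falls past the threshold were named. This was done for genotype on day 2.5 and for time in control bodies. The 6 lists of cell type markers are given as summed levels and counts of called genes. Some of their genes were also named, but not by that rule throughout. Genes alike in pattern were the 2 with the highest Pearson's r of log2 CPM (prior count 2). Promoter sequences are RefSeq's. Gene coordinates in the counts' own build were not used here.

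The labels do not say that a replicate number marks a pair, so the fit has no replicate block.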

Additional observations from a re-analysis of the deposited data

Results flagged for a closer look

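None of the 10 members passed the interaction test, which asks whether the genotype effect differed between day 2 and day 2.5. Of the 26 other named genes 6 did, where 4.01% of all tested genes passed. A missed threshold does not show that a member's effect was the same on both days. Those 26 genes were named for large effects on day 2.5 or over time in control bodies, comparisons that share libraries with the interaction, so this share cannot be read against that of all genes. The values here are the log2 effect of Trim33 deficiency on day 2.5 minus that on day 2, with edgeR adjusted p-values. Fn1, the fibronectin gene, had a difference of 0.76 ± 0.16 SE (adjusted p = 0.0283), Snai1 of 1.09 ± 0.28 (adjusted p = 0.0385) and Krt8 of 0.82 ± 0.18 (adjusted p = 0.0231). Neither Snai1 nor Krt8 was called on day 2. Grhl2, a transcription factor of epithelia, had a difference of 0.34 ± 0.092 (adjusted p = 0.0481). Prom1 had a difference of -0.75 ± 0.17 (adjusted p = 0.03), its effect being 0.17 on day 2 and -0.58 on day 2.5. Dsg2 rose less on day 2.5 than on day 2 (-0.44 ± 0.091, adjusted p = 0.0168), with effects of 0.64 and 0.20.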

How the results depend on the processing

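Of the 12 called differences at the members, 9 kept their direction and call under every alternative run; the exceptions, Ocln on day 2.5 and Cldn7 and Vim with time in control, are given with their values above. No member reversed under RLE size factors or upper-quartile factors, and no called value reversed under any alternative.

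All genes called on day 2, 1413, were 814 without both libraries rich in ribosomal RNA and 514 to 1617 with 1 library left out. The interaction count, 575, was 1169 with a replicate block, 1967 without all 3 libraries that stood apart and 119 to 1217 with 1 left out. Time in control, 2313, gave 1384 with only the libraries compared and 1235 to 2393 with 1 left out, and time in Trim33-deficient bodies, 2300, gave 3741 without all 3 and 1101 to 2780 with 1 left out. The cause was not tested.

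Members that fell in the interaction, 0, were 1 with DESeq2, 1 with a replicate block, 2 with a replicate block by day, 2 without all 3 and 0 to 1 with 1 left out; those that rose, 0, were 1 with either block and 0 to 1 with 1 left out. Members that fell with time in control, 1, were 2 with a replicate block, 0 without both rRNA-rich libraries, 0 without all 3 and 0 to 2 with 1 left out. Members that rose on day 2, 1, were 2 with either replicate block and 2 without all 3, and members that rose with time in Trim33-deficient bodies, 0, were 1 with only the libraries compared. Under the replicate block Zeb1 passed on day 2 (edgeR adjusted p = 0.0282) and with time in control (0.0292), and Cldn7 (0.0204) and Vim (0.0355) passed in the interaction. Same-numbered libraries had correlations of -0.079 to 0.45 in their deviations from the group mean. Between day 2 and day 2.5 control they were 0.36, 0.45 and 0.032 for replicates 1, 2 and 3, against -0.45 to 0.17 for differing numbers. Whether the numbers mark pairs is not given in the labels, so they are not taken as pairs. Without all 3 libraries Esrp1 passed on day 2 (log2 0.28, adjusted p = 0.00516).

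Uncalled log2 values that changed sign were these. With 1 library left out, Cdh2 ranged from -0.18 to 0.090 with time in control and from -0.028 to 0.20 in Trim33-deficient bodies; on day 2 Cldn7 ranged from -0.20 to 0.090, Epcam from -0.050 to 0.012, Ocln from -0.13 to 0.0082 and Zeb2 from -0.23 to 0.033. On day 2.5 Esrp1 ranged from -0.040 to 0.079 and Zeb2 from -0.14 to 0.13. With time in Trim33-deficient bodies Cldn7 ranged from -0.24 to 0.13, Vim from -0.11 to 0.060 and Zeb1 from -0.028 to 0.33, and the Zeb2 interaction ranged from -0.075 to 0.22. Without both rRNA-rich libraries Cdh2 with time in control was 0.063, Epcam on day 2 was 0.000746 and the Zeb2 interaction was -0.14. Without all 3, day 2 values were 0.064 for Cldn6, 0.18 for Cldn7, 0.029 for Epcam and 0.00683 for Ocln. Zeb2 on day 2.5 was 0.0032 with a replicate block and 0.00176 with a block by day. Depth limits Zeb1 most, at 12 to 90 counts per library.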

Other observations

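On day 2, 7 of the 36 tested junction and polarity genes were higher in Trim33-deficient bodies and 0 were lower, where 5.94% of all tested genes were higher and 3.90% lower; at an unadjusted p under 0.05, 4 were lower, and DESeq2 called 0 lower. The number that was higher was 4 without day 2 control replicate 1 or 3, and 4 without day 2 Trim33-deficient replicate 1 or 2. The desmosome genes Perp (log2 0.93 ± 0.14 SE, edgeR adjusted p = 0.00191), Dsg2 (0.64 ± 0.066, adjusted p = 3.36e-05) and Pkp3 (0.56 ± 0.15, adjusted p = 0.0318) were among them, named after their values were seen. On the list of epithelial transcription and splicing factors 5 of 15 tested genes were higher, beside the same 5.94% of all genes. They were Esrp2, Klf5, the protease gene Prss8, which is not a factor, Tfap2c (1.33 ± 0.19, adjusted p = 0.000887) and Klf4 (1.07 ± 0.24, adjusted p = 0.0128). Leaving out 1 library moved that number to 3 (day 2 control replicate 1, or day 2 Trim33-deficient replicate 2) or 2 (day 2 control replicate 3).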
